A study of Mus musculus with 15 samples.

Results

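Double-labelled and green cells sorted from the embryonic mouse thalamus at E18.5 were compared on 6 of the series' 15 expression arrays, 3 of double-labelled and 3 of green cells. These were all arrays that the sample names assign to the 2 populations, and no measured value chose them. Every embryo in the series had the genotype Gbx2CreER-IRES-EGFP/+::R26lsl-tdTomato/+ on a C57BL/6 background, so green fluorescence came from EGFP at the Gbx2 locus and red fluorescence from tdTomato at Rosa26 once Cre had removed a stop cassette. CreER enters the nucleus when tamoxifen is present, and dams of E18.5 litters had received 4 mg at E9. Double-labelled cells therefore carried EGFP together with the red lineage mark, and green cells carried EGFP alone. At E18.5 3 arrays of red cells, with the mark alone, were also made, as were 3 of red and 3 of green cells at E14.5 after the same dose at E9.5. A cell that expressed Gbx2 at E9 but escaped recombination would be sorted as green if it held EGFP at E18.5. The gates, and how many embryos went into a sample, are not given in the sources used here. The replicates are called biological, but nothing says which came from separate litters, and p-values measure only the spread between these samples.

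Gbx2 is a homeodomain transcription factor of the thalamus, the relay between the sense organs, the basal ganglia and the cerebral cortex. It is switched on as thalamic neurons leave the cell cycle and is needed for their identity and for the growth of their axons to the cortex. Some thalamic nuclei keep Gbx2 until birth and others lose it, so cells that hold EGFP late in gestation with or without an early mark can differ in nucleus and birth date.

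**Figure D1:**
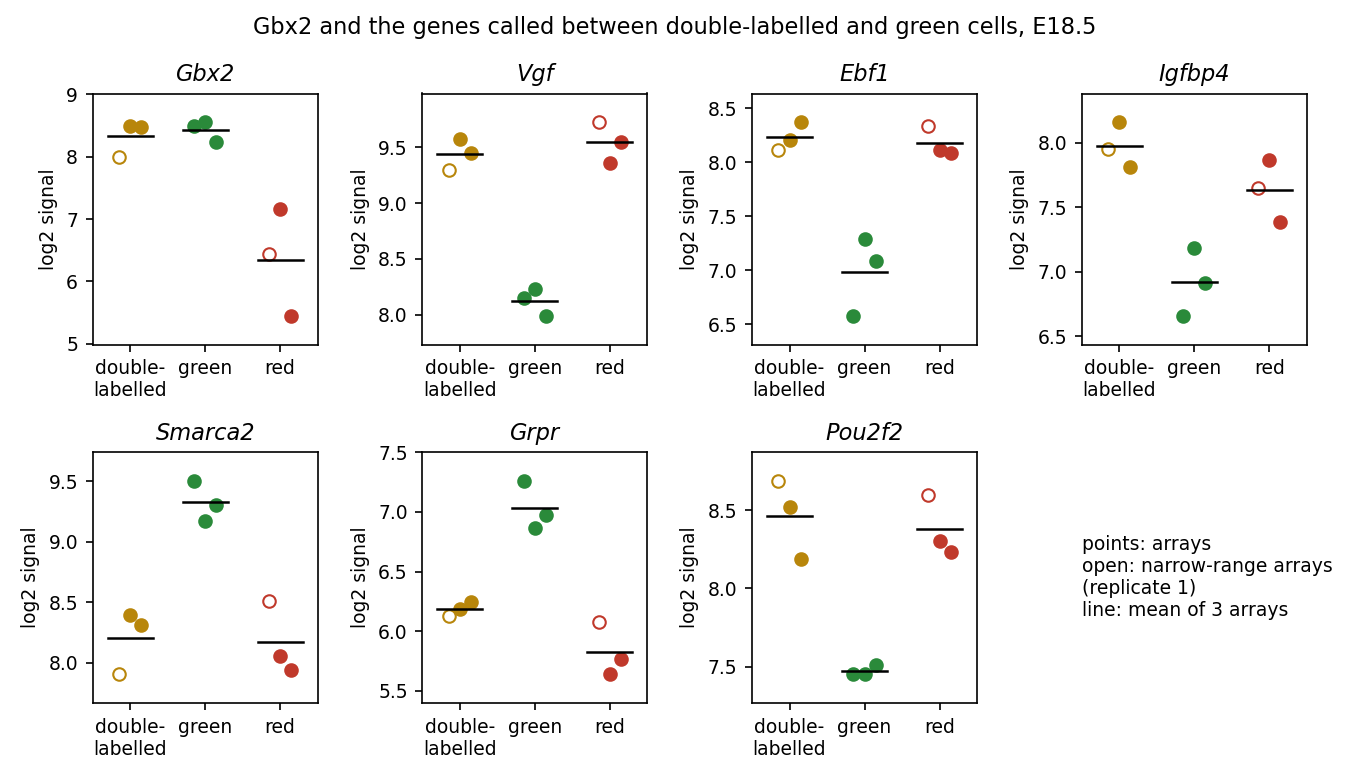
Log2 signal of Gbx2 and the 6 genes that passed the threshold, in double-labelled, green and red cells at E18.5. Each point is 1 array, open points are replicate 1 of the double-labelled and red cells, and lines are means of 3 arrays; double-labelled and green points overlap for Gbx2 and for none of the 6 other genes.

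Gbx2, the locus that carries EGFP in both populations, was at nearly the same level in them. Its log2 signals were 8.0, 8.50 and 8.48 in the double-labelled arrays and 8.50, 8.55 and 8.23 in the green arrays, and the groups overlapped. The log2 difference, double-labelled minus green, was -0.10 ± 0.30 (SE; limma adjusted p 0.938), and it was 0.07 without double-labelled replicate 1. The red arrays averaged 6.35 ± 0.86 (SD, n = 3). At the other end of the label, transcripts of the Rosa26 host gene Gt(ROSA)26Sor, chosen for naming after its values were seen, stood at 7.33, 7.86 and 7.86 in double-labelled cells and at 6.71, 7.15 and 7.02 in green cells. All double-labelled arrays lay above all green arrays, but the difference of 0.72 did not pass (adjusted p 0.611). It passed once the narrow-range arrays described next were set aside (0.90, adjusted p 0.0417).

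The other thalamic neuron markers were present in both populations. Slc17a6, the vesicular glutamate transporter of thalamic relay neurons, averaged 10.17 ± 0.54 in double-labelled and 10.52 ± 0.15 in green cells, and the transcription factor Tcf7l2 averaged 11.92 ± 0.13 and 12.00 ± 0.06 (SD, n = 3 each). Of 7 such markers, all above the level filter, none passed the test, although the LIM-homeodomain factor Lhx9 was the farthest apart, at 9.51, 9.60 and 9.71 against 10.30, 10.16 and 10.10 (log2 difference -0.58, adjusted p 0.261). Double-labelled replicate 1 stood apart. The SD of all its values was 1.31, against 1.47 and 1.51 in the other double-labelled arrays and 1.47 to 1.50 in the green arrays, so abundant transcripts read low and dim ones high. Red replicate 1, with an SD of 1.34, shared this feature, and both are called the narrow-range arrays. Double-labelled replicate 1 correlated with its group mates at 0.940, against 0.983 to 0.985 within the green group. Because of this, selected differences and counts are also given without that array.

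Of 16635 genes tested, 6 differed between the populations at a limma adjusted p under 0.05, which is 0.0361% of them. Vgf, Ebf1, Igfbp4 and Pou2f2 were higher in double-labelled cells (0.024%), and Smarca2 and Grpr lower (0.012%). Vgf and Ebf1 were the genes that passed without double-labelled replicate 1 (0.012%). The calls depended on having the E14.5 arrays in the fit. With the 9 E18.5 arrays alone limma called 0 genes. Of the 16635 genes 485 had an unadjusted p under 0.05 there, against 949 in the fit as reported. The smallest adjusted p with these 9 arrays was that of Vgf, 0.0709. Ebf1, Igfbp4, Smarca2 and Pou2f2 stood at 0.503 and Grpr at 0.517. That fit has fewer residual degrees of freedom. With all 15 arrays and 1 weight per stage it also called 0, with 519 at an unadjusted p under 0.05. The median SD within a group was 0.122 at E14.5 and 0.218 at E18.5. In the sorted populations measured here, a larger share of cells with a transcript and more of it per cell cannot be told apart.

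Vgf encodes a neurosecretory precursor that is packed into dense-core vesicles and cleaved into several bioactive peptides. Its log2 signals were 9.30, 9.57 and 9.45 in double-labelled cells and 8.15, 8.23 and 7.99 in green cells. The lowest double-labelled array was above the highest green one by a wide margin compared with the scatter inside each group. The difference was 2.49-fold (log2 1.32 ± 0.14, SE; adjusted p 0.00426) and it was as large without double-labelled replicate 1 (log2 1.39, adjusted p 0.00906). Red cells averaged 9.54 ± 0.18 (SD, n = 3), close to the double-labelled cells. Vgf kept its call in 5 of the 6 fits that left out 1 compared array, losing it without green replicate 3 (adjusted p 0.0571).

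The other members of the secretory pathway that Vgf enters did not pass. Of 12 granins and dense-core vesicle genes, Vgf was the 1 past the threshold and the 1 with an unadjusted p under 0.05, where 5.7% of all genes had such a p. Without double-labelled replicate 1, 4 of the 12 did, all at positive differences: Vgf, Chga (0.62), Chgb (0.36) and Scg2 (0.80), beside 4.92% of all genes; Chga and Chgb were named after their values were seen. Scg2, a granin with its own peptide products, stood at 10.13, 10.84 and 10.65 in double-labelled cells and at 9.82, 10.13 and 9.89 in green cells (log2 difference 0.59, adjusted p 0.84). Scg3, which sorts granins into vesicles, was 7.80 in double-labelled replicate 1 and 9.46 and 9.26 in the other 2, against 9.19 to 9.45 in green cells. The median difference of the list was 0.09 with all arrays and 0.09 without double-labelled replicate 1, beside -0.0045 and 0.01 for all genes tested.

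Igfbp4 encodes a secreted protein that binds insulin-like growth factors and limits their access to the receptor. Signals were 7.95, 8.16 and 7.81 in double-labelled cells and 6.66, 7.19 and 6.91 in green cells, with no overlap. Expression was 2.07-fold higher in the double-labelled group (log2 1.05 ± 0.15, SE; adjusted p 0.0303). The size held without double-labelled replicate 1 (log2 1.06) while the adjusted p was 0.108. None of the 16 other genes of the insulin-like growth factor axis that were tested passed. With all arrays, those with an unadjusted p under 0.05 were at negative differences: the binding protein relative Igfbpl1 at -0.45, Irs2, an adaptor of the insulin and growth factor receptors, at -0.39, and Igfbp7, named after its value was seen, at -0.38 (adjusted p 0.549, 0.756 and 0.84). This depended on double-labelled replicate 1, without which 3 genes of the list, Igfbp4 included, had such a p at positive and 1 at negative differences, and Irs2 stood at -0.21. Over all genes 2.96% had such a p at negative differences with all arrays, and 4.92% in both directions together without that array.

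Grpr encodes the receptor for gastrin-releasing peptide, a bombesin-like neuropeptide, and Grp encodes the precursor of that peptide. Grpr signals were tightly grouped in double-labelled cells, at 6.12, 6.18 and 6.24, and stood at 7.26, 6.87 and 6.97 in green cells. The receptor transcript was 1.80-fold lower in double-labelled cells (log2 -0.85 ± 0.13, SE; adjusted p 0.0306), and its log2 difference was -0.82 without double-labelled replicate 1 (adjusted p 0.126). Its ligand stood on the same side: Grp was 7.26, 6.76 and 6.81 in double-labelled and 7.59, 7.68 and 7.90 in green cells. All 3 green arrays were above all double-labelled arrays, with a log2 difference of -0.78 that did not pass (adjusted p 0.26), and of -0.94 that did without the narrow-range arrays (adjusted p 0.049). Receptor and ligand thus both had non-overlapping groups, as 3.98% of all genes did in that direction.

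Among 27 neuropeptide receptors tested, Grpr was the 1 past the threshold, and Crhr1 and Ntsr1 had an unadjusted p under 0.05 in the other direction. Without double-labelled replicate 1, 5 at positive and 3 at negative differences had such a p. Crhr1, the main receptor for corticotropin-releasing hormone, stood at 7.19, 7.46 and 7.15 against 6.50, 7.0 and 6.56 (log2 difference 0.58, adjusted p 0.268). Ntsr1, a neurotensin receptor, differed by 0.29 (adjusted p 0.84). Of 22 peptide precursors limma called 0, with 2 at an unadjusted p under 0.05 at positive and 3 at negative differences, and 6 and 1 without double-labelled replicate 1, so this balance too turned with that array. Over all genes the shares with such a p were 2.74% at positive and 2.96% at negative differences, and 4.92% in both directions together without that array. The galanin precursor Gal had the widest gap, at 6.19, 7.41 and 7.58 against 7.92, 8.63 and 7.85 (log2 difference -1.08, adjusted p 0.784), and it narrowed to -0.64 without double-labelled replicate 1.

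Ebf1, a helix-loop-helix factor of neuronal and B-cell differentiation, was the called transcription factor with the largest difference. Its signals were 8.12, 8.20 and 8.37 in double-labelled cells and 6.58, 7.29 and 7.08 in green cells. The green arrays spread more widely than the double-labelled ones and the groups stayed apart. Ebf1 was 2.37-fold higher in double-labelled cells (log2 1.25 ± 0.16, SE; adjusted p 0.0169) and passed without double-labelled replicate 1 (log2 1.30, adjusted p 0.0474). It kept its call in 4 of the 6 fits without 1 compared array, losing it without double-labelled replicate 2 (adjusted p 0.0684) and without green replicate 3 (0.0831). Red cells were again level with the double-labelled cells, at 8.18 ± 0.14 (SD, n = 3).

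Its relatives did not pass. Ebf2 and Ebf3, named after their values were seen, differed by 0.02 and 0.03, and the zinc finger cofactor Zfp521 by 0.20 (adjusted p 0.84). Ebf4 stood at 7.73, 7.30 and 6.78 against 6.97, 6.76 and 6.79, where the high value was that of double-labelled replicate 1. Of the 6 genes of this list, 1 passed.

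Pou2f2 encodes an octamer-binding POU-domain factor. It stood at 8.69, 8.52 and 8.19 in double-labelled cells and at 7.45, 7.45 and 7.51 in green cells. Green values were nearly identical, and the lowest double-labelled value was well above them. The level was 1.99-fold higher in double-labelled cells (log2 0.99 ± 0.15, SE; adjusted p 0.0333). The highest value was that of double-labelled replicate 1, and without it the log2 difference was 0.88 (adjusted p 0.144). Of 9 POU-domain genes tested, Pou5f2 came next without passing, at 5.88, 5.69 and 5.71 against 5.56, 5.40 and 5.11 (log2 difference 0.41, adjusted p 0.63), and the other 7 had an unadjusted p above 0.05.

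Smarca2 encodes BRM, an ATPase of the BAF chromatin remodelling complex that can take the place of its paralog Smarca4 (BRG1). Smarca2 stood at 7.91, 8.40 and 8.31 in double-labelled and at 9.5, 9.17 and 9.30 in green cells. The ATPase transcript was 2.18-fold lower in double-labelled cells (log2 -1.12 ± 0.16, SE; adjusted p 0.0303), and the log2 difference was -0.97 without double-labelled replicate 1 (adjusted p 0.108). Smarca4, named after its value was seen, differed by -0.02. Smarca2 and Grpr lost their calls in each of the 6 fits without 1 compared array. Pou2f2 lost its call in all but the fit without double-labelled replicate 3, and Igfbp4 in all but those without double-labelled replicate 3 or green replicate 2. The highest adjusted p of any of the 6 genes in these fits was 0.176.

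Of 26 BAF subunit genes, Smarca2 alone passed. The zinc finger subunits Bcl11a and Bcl11b, which are also neuronal transcription factors, had differences of opposite sign. Bcl11a stood at 8.68, 9.24 and 8.90 against 8.24, 8.45 and 8.45 (log2 difference 0.56, adjusted p 0.828). Bcl11b stood at 6.80, 6.22 and 6.33 against 7.28, 7.15 and 7.34 (log2 difference -0.81, adjusted p 0.275), and passed without the narrow-range arrays (-0.98, adjusted p 0.0379). In neither gene did the groups overlap, as in 4.17% of all genes at positive and 3.98% at negative differences.

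The start regions of the called genes were read for letters that bind factors of the families in play. Windows from 250 bases before to 50 after a RefSeq start site (GRCm38.p6) were used for 5 of the 6, Ebf1, Igfbp4, Pou2f2, Smarca2 and Grpr, in 6 windows, and Vgf was not used here. The 5 motifs searched on both strands, any overlap allowed, were the cAMP response element TGACGTCA (in 1.79% of 32851 promoters of this length), the palindromic EBF consensus, TCCC and GGGA spaced by any 2 bases (0.904%), the octamer ATGCAAAT (1.735%), the homeodomain core TAATTA (5.291%) and the LEF-TCF site ATCAAAG (3.729%). None of the 6 windows held any of them, which says only that these letters are not in these windows. The upstream 250 bases are shown for the called gene on each side whose RefSeq window starts at the gene's own annotated start, with CpG dinucleotides in capitals. For Ebf1 they lie at chr11:44617850-44618099 on the plus strand, with 9 CpG and a GC content of 40.0%. For Grpr they lie at chrX:163549737-163549986 on the minus strand, with 5 CpG and a GC content of 51.6%. The median over all promoters was 6 CpG and 52.4%. The windows not shown had 12 CpG and 64.8% for Pou2f2, 22 and 69.2% for Igfbp4, and 28 and 68.4% for Smarca2. The second Ebf1 window had 14 CpG and 52.0%, and base composition was not divided by the side of the difference.
Ebf1: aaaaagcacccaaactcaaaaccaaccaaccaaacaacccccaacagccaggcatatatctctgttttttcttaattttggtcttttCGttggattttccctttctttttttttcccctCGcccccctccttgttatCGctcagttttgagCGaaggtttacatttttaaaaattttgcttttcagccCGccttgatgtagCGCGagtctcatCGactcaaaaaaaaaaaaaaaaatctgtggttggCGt
Grpr: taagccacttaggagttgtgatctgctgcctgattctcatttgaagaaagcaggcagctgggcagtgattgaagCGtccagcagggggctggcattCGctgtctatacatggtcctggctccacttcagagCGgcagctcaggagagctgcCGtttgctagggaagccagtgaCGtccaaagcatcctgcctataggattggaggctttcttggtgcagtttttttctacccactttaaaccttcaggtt

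Beyond the called genes, those with the largest differences were taken from 203 genes with an unadjusted p under 0.01, groups that did not overlap, and the same sign with p under 0.05 without double-labelled replicate 1. The values that chose these 20 genes, 10 on each side, are descriptions. On the positive side were Crabp2, Vgf, C1ql1, Ebf1, Slc6a4, Tshz1, Cntnap5b, Slc18a2, Igfbp4 and Trhde, with log2 differences from 1.47 down to 1.03. On the negative side were Clybl, Zic5, Pcdh18, Plxna2, Smarca2, Nek7, Prox1, Nfib and Zar1, from -1.70 to -1.01, and 1 gene not reported here. Except for Vgf, Ebf1, Igfbp4 and Smarca2 they did not pass the threshold in the fit as reported. With a term for replicate number added to that fit (the replicate block), Clybl, Zic5 and Cntnap5b also passed (limma adjusted p 0.0306 each). Nfib did too (0.0229).

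**Figure D2:**
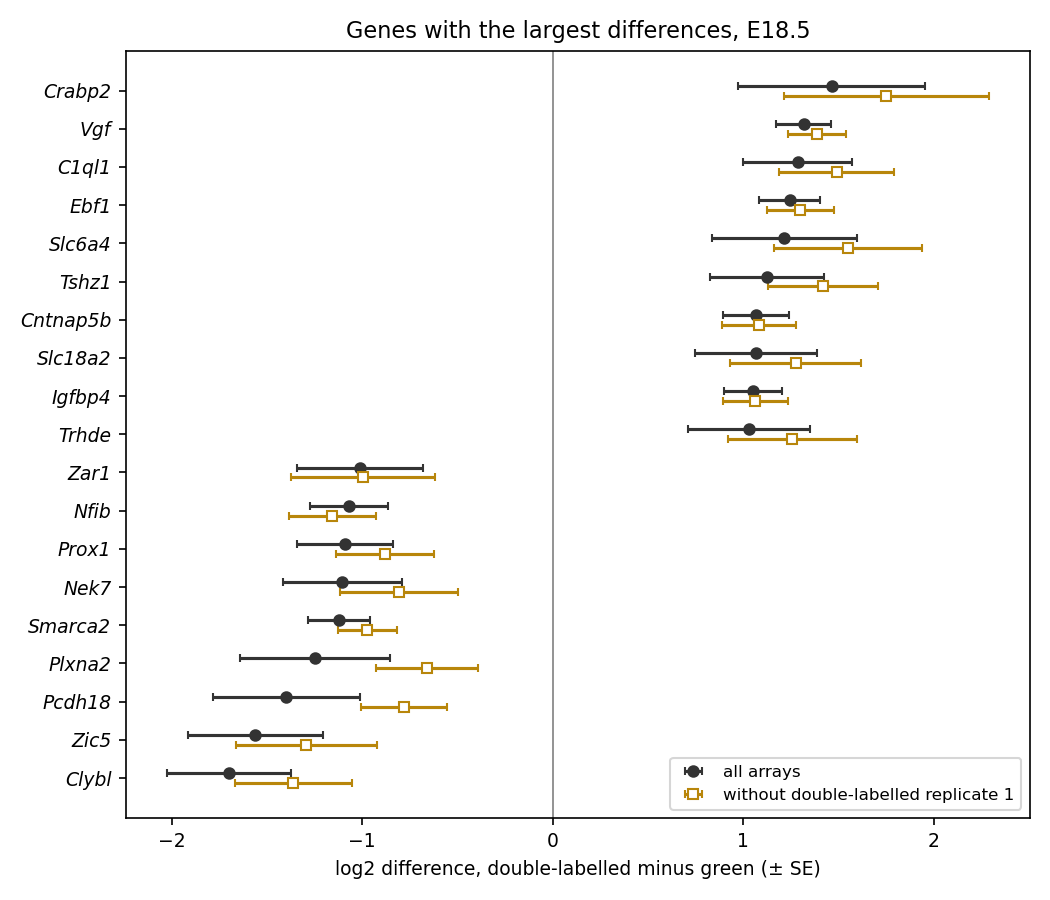
Log2 difference, double-labelled minus green, with its SE for the named genes with the largest differences on each side, with all arrays (filled) and without double-labelled replicate 1 (open). Every gene keeps its side because the rule that chose the genes required it. Pcdh18 moves from -1.40 to -0.78 and Plxna2 from -1.25 to -0.66.

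Several of these genes mark thalamic projection classes, which differ in retinoid handling and in monoamine uptake. Crabp2, a carrier that brings retinoic acid to its nuclear receptors, stood at 9.72, 10.94 and 10.21 in double-labelled and at 8.08, 9.27 and 9.13 in green cells. The scatter inside each group was wide, and the log2 difference of 1.47 did not pass (adjusted p 0.672). Part of that scatter went with replicate number. The SE was 0.49 in the fit as reported and 0.25 with the replicate block, where Crabp2 still did not pass (limma adjusted p 0.0749). The serotonin transporter Slc6a4, which sensory thalamic neurons borrow around birth to take up serotonin, stood at 6.38, 7.68 and 7.09 against 5.78, 5.79 and 5.94. Its values varied by more than a log2 unit among the double-labelled arrays and barely among the green ones (log2 difference 1.22, adjusted p 0.611).

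Slc18a2, the transporter that loads monoamines into vesicles, stood at 8.98, 9.61 and 9.62 against 7.97, 8.51 and 8.54 (log2 difference 1.07, adjusted p 0.549). Htr1b, a presynaptic serotonin receptor, stood at 7.86, 8.15 and 7.86 against 7.25, 7.45 and 7.28 (log2 difference 0.63, adjusted p 0.476). Slc6a4 and Slc18a2 were chosen for large differences without overlap and Htr1b for its p, so that their separation, shared by 4.17% of all genes in this direction, is a description. Of 14 monoamine genes tested limma called 0, with 5 at an unadjusted p under 0.05 at positive differences and 1 at a negative one, beside 2.74% and 2.96% of all genes. The dopamine transporter Slc6a3 was among the 5 at a low level, 6.48, 6.17 and 6.45 against 5.90, 5.85 and 5.86, where red cells averaged 7.90 ± 0.25 (SD, n = 3).

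Among 20 projection-class markers the median difference was -0.19, and 0.0040 without double-labelled replicate 1. Limma called 0 of them, with 3 at an unadjusted p under 0.05 at positive and 6 at negative differences, and 3 and 3 without double-labelled replicate 1. Over all genes the shares were 2.74% and 2.96%, and 4.92% in both directions together without that array. Calb2, the calcium-binding protein calretinin, stood at 8.95, 9.07 and 9.10 in double-labelled and at 10.24, 9.97 and 9.60 in green cells. Every green array was above every double-labelled array, and the difference was -0.89 (adjusted p 0.212). Of 15 retinoic acid genes 0 passed and Crabp2 and Rdh10 had an unadjusted p under 0.05. Rdh10, which makes retinal for retinoic acid synthesis, had a difference of -0.46 (adjusted p 0.753).

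Of 30 thalamic transcription factors tested, Pou2f2 passed, and 5 at positive and 7 at negative differences had an unadjusted p under 0.05, beside 2.74% and 2.96% of all genes. Tshz1, a teashirt-class zinc finger factor, stood at 8.30, 9.42 and 8.95 against 7.70, 7.82 and 7.77 (log2 difference 1.12, adjusted p 0.449). Lef1, the nuclear partner of beta-catenin in Wnt signalling, stood at 8.94, 9.04 and 8.84 against 8.02, 8.32 and 8.41 (0.69, adjusted p 0.167). Lef1 hardly varied among double-labelled arrays and was as high in red cells, at 9.07 ± 0.19 (SD, n = 3).

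Of the 7 at negative differences, Zic5, a zinc finger factor of early neural development, stood at 7.87, 8.44 and 8.90 in double-labelled and at 9.86, 10.06 and 9.98 in green cells (log2 difference -1.56, adjusted p 0.26). A second probe set of this gene gave -1.42. Its relatives Zic4 and Zic1, named after their values were seen, had differences of -0.89 and -0.41 (adjusted p 0.212 and 0.549), again without overlap. Nfib, a nuclear factor I gene of neuronal and glial differentiation, stood at 6.92, 6.57 and 6.74 against 8.15, 7.68 and 7.62 (-1.07, adjusted p 0.138), and Prox1, a homeodomain factor, at 8.93, 9.33 and 9.77 against 10.43, 10.55 and 10.30 (-1.09, adjusted p 0.261). None of these genes passed in the fit as reported, and Zic5, Nfib and Prox1 were chosen in part for groups that do not overlap. Zic5 and Nfib passed with the replicate block (limma adjusted p 0.0306 and 0.0229) and with 1 weight per array (0.0269 and 0.0289). Prox1 passed in neither (0.121 and 0.226).

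Among Wnt pathway genes other than Lef1, the secreted inhibitor Wif1 stood at 6.50, 6.23 and 6.36 against 7.15, 7.35 and 7.02 (-0.81, adjusted p 0.138) and passed without the narrow-range arrays (-0.88, adjusted p 0.0379). Rspo3, a secreted enhancer of Wnt signalling, stood at 5.85, 5.64 and 6.14 against 6.96, 6.21 and 7.32 (-0.96, adjusted p 0.417). Of 25 Wnt genes limma called 0 in the fit as reported. At an unadjusted p under 0.05 were 3 at positive and 2 at negative differences, beside 2.74% and 2.96% of all genes. Without double-labelled replicate 1 the counts were 2 and 2, beside 4.92% of all genes in both directions together.

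Among cell-surface genes, Cntnap5b, a contactin-associated adhesion protein of the neurexin superfamily, stood at 7.96, 7.99 and 8.03 in double-labelled and at 6.97, 6.76 and 7.04 in green cells. The double-labelled arrays were almost identical, replicate 1 included, and red cells averaged 7.01 ± 0.38 (SD, n = 3), level with the green cells. The log2 difference of 1.07 just missed the threshold (adjusted p 0.0562) and passed without the narrow-range arrays (1.09, adjusted p 0.00965). Its paralog Cntnap5a stood at 8.51, 8.73 and 8.99 against 8.08, 7.97 and 7.93 (0.75, adjusted p 0.261) and passed in the same way (0.87, adjusted p 0.00965).

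Of 37 synaptic and axonal adhesion genes limma called 0 in the fit as reported. At an unadjusted p under 0.05 were 3 at positive and 3 at negative differences, beside 2.74% and 2.96% of all genes. Without double-labelled replicate 1 the counts were 5 and 2, beside 4.92% of all genes in both directions together. C1ql1, a secreted C1q-like protein that organises synapses, stood at 7.31, 8.55 and 7.30 against 6.21, 6.44 and 6.64 (1.29, adjusted p 0.245). Pcdh18 and Plxna2, both on the green side, depended on double-labelled replicate 1 for much of their size. The protocadherin gene was 6.32 in that array and 8.12 and 8.20 in the other 2, against 8.90 to 9.01 in green cells. Plxna2, whose product is a co-receptor for class 3 semaphorins, was 6.53 there and 8.24 and 8.35 in the others, against 8.74 to 9.07.

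Of 38 slit, netrin and semaphorin pathway genes 0 passed, with 1 at a positive and 9 at negative differences at an unadjusted p under 0.05. The shares of all genes with such a p were 2.74% at positive and 2.96% at negative differences. Without double-labelled replicate 1 these counts were 5 and 4 (4.92% of all genes had such a p then), so the balance of the list depended on that array. Draxin, a secreted repellent of commissural axons, had the smallest p of them, at 6.70, 7.21 and 7.09 against 7.54, 7.76 and 7.60 (-0.63, adjusted p 0.19, and -0.48 without that array). Of 18 ephrins and Eph receptors 0 passed, with 2 at positive and 3 at negative differences at an unadjusted p under 0.05, and 1 and 0 without double-labelled replicate 1. The receptor Epha8 stood at 6.80, 7.16 and 6.80 against 6.52, 6.29 and 6.18 (0.59, adjusted p 0.528), with every double-labelled array above every green one.

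**Figure D3:**
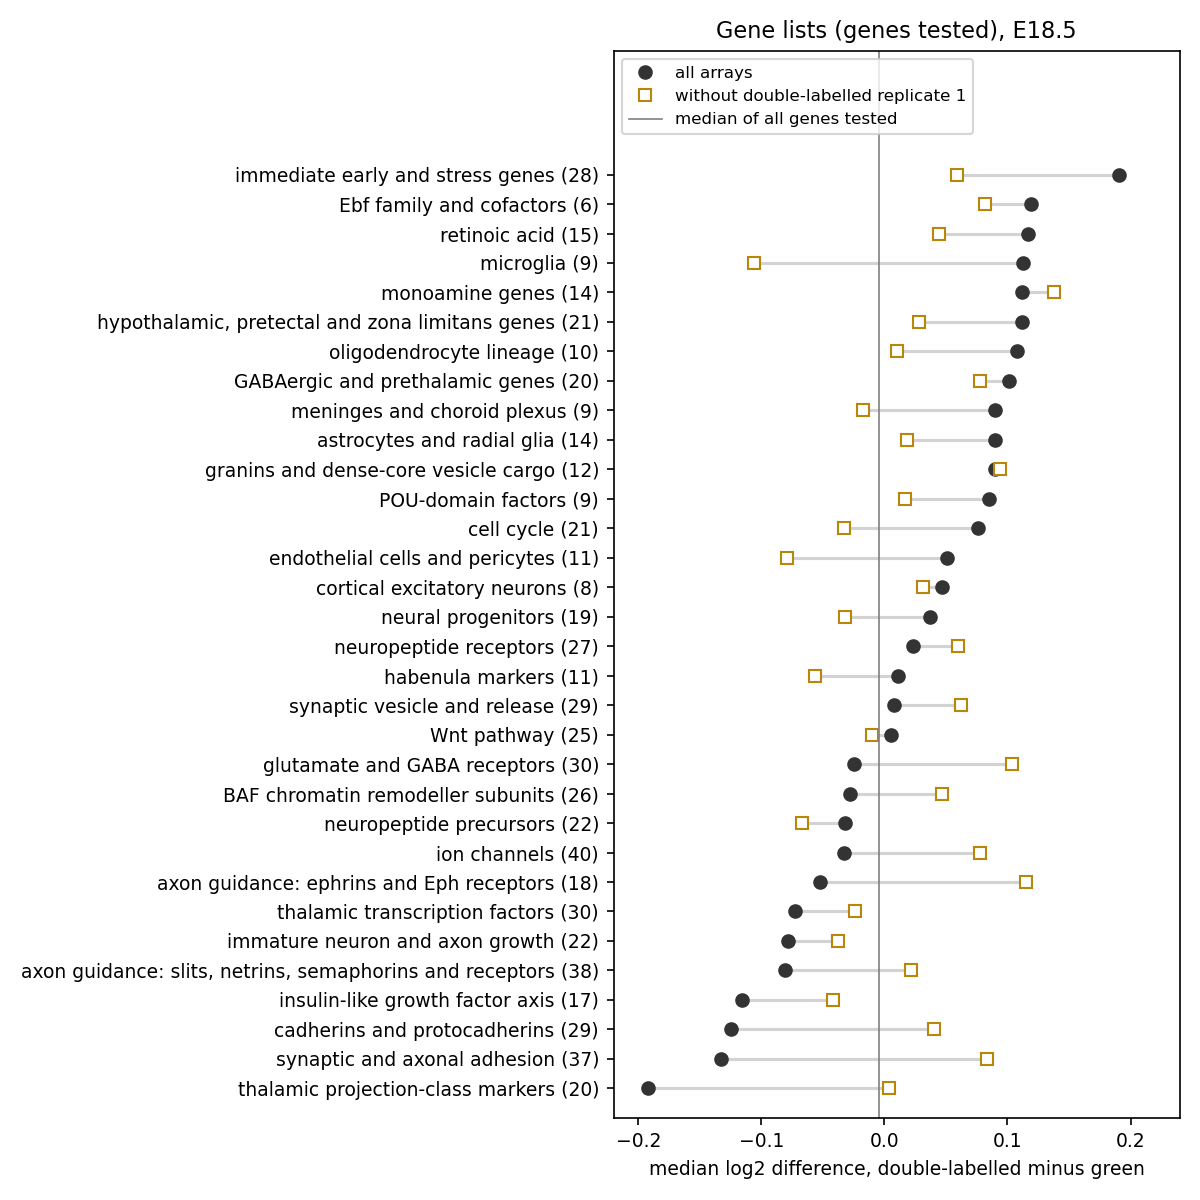
Median log2 difference, double-labelled minus green, of the gene lists with at least 6 genes tested (number in brackets), with all arrays (filled) and without double-labelled replicate 1 (open); the line marks the median of all genes tested. Points move to the right for neuronal lists with high signals, such as adhesion from -0.13 to 0.08, and to the left for lists of dim genes, such as microglia from 0.11 to -0.11.

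The direction of a whole list was often set by double-labelled replicate 1. For 15 of 34 lists the median changed sign when that array was left out. Several neuronal lists with high signals moved up, cadherins and protocadherins from -0.12 to 0.04, ion channels from -0.03 to 0.08 and glutamate and GABA receptors from -0.02 to 0.10. Dim lists moved down, endothelial cells and pericytes from 0.05 to -0.08 and cell cycle genes from 0.08 to -0.03. Apart from the 7 lists named above that held a called gene, limma called 0 members of any list, with the unadjusted counts at most 3 at positive and 9 at negative differences in a list, except for the 5 monoamine genes.

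Mean levels of 8 lists of markers of other cell types were below the mean of all transcript clusters in both populations. That mean was 6.17 to 6.18 in the 6 compared arrays. The list of astrocytes and radial glia, given further below, was above it. The mean levels given here include list members below the level filter. Over 12 microglial genes the mean log2 level was 5.88 in double-labelled replicate 1, 5.52 and 5.57 in the other double-labelled arrays and 5.56 to 5.59 in green cells. Over 12 oligodendrocyte lineage genes it was 5.65 to 5.89 against 5.60 to 5.73, over 15 endothelial and pericyte genes 5.48 to 5.67 against 5.52 to 5.66, and over 14 genes of meninges and choroid plexus 5.37 to 5.65 against 5.34 to 5.41. In each of these 4 lists the highest array was double-labelled replicate 1. Over 24 GABAergic and prethalamic genes the mean level was 5.71 to 5.85 against 5.65 to 5.80, and over 13 habenula genes 5.91 to 6.01 against 5.92 to 6.04. Over 10 genes of cortical excitatory neurons it was 5.81 to 5.95 against 5.89 to 5.99, and over 5 erythroid genes 5.51 to 5.63 against 5.54 to 5.71. Limma called 0 members of these 8 lists in the fit as reported. Wif1 in the habenula list and Bcl11b in the cortical list passed without the narrow-range arrays.

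Glial genes gave 2 wide gaps of opposite sign. Slc1a3, the glutamate transporter of astrocytes and radial glia, stood at 6.09, 6.16 and 6.22 in double-labelled and at 5.17, 5.42 and 5.51 in green cells (0.79, adjusted p 0.26). Ptprz1, a receptor phosphatase of radial glia and oligodendrocyte precursors, stood at 7.14, 8.40 and 8.40 against 8.82, 8.98 and 8.57 (-0.81, adjusted p 0.599, and -0.39 without double-labelled replicate 1). Over all 14 astrocyte and radial glia genes the mean level was 6.35 to 6.48 against 6.35 to 6.45, and their part in any difference was not tested. Immediate early and stress genes had the highest list median, 0.19, and 0.06 without double-labelled replicate 1. Fos was 6.66 in that array and 5.53 and 5.82 in the other 2, against 5.37 to 5.61 in green cells, and Arc was 7.68 there and 6.85 and 6.53 in the others, against 6.44 to 6.60. Both are transcripts that neurons induce within minutes of stimulation. Without that array their log2 differences were 0.16 and 0.17.

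Setting aside both narrow-range arrays left 2 double-labelled and 3 green arrays and gave 35 genes past the threshold, 0.21% of those tested, 21 higher (0.126%) and 14 lower (0.0842%). The same 5 arrays with red replicate 1 kept in the fit gave identical log2 differences and 2 genes, so the rise to 35 came with leaving out red replicate 1, an array outside the comparison that enters only the variance estimate. All 6 genes called in the fit as reported were among them. In the fit with all arrays each of the 35 had the same sign, 29 had an unadjusted p under 0.05 and 26 had groups that did not overlap. Over all genes 5.7% had such a p and 8.15% had such groups. The 5 arrays that chose the 35 genes are also in that fit, so these counts are descriptions. The genes with the smallest p in this setting on the higher side were Vgf, Sertm1, Cntnap5a, Ebf1, Cntnap5b, Man2a2, Pou2f2, Igfbp4, B3glct and Tafa1. Man2a2, a Golgi mannosidase of N-glycan processing, stood at 7.42, 7.66 and 7.58 against 6.99, 7.0 and 6.75, and passed at 0.71 (adjusted p 0.0207). Sertm1, a small membrane protein, stood at 7.24, 8.30 and 8.03 against 7.24, 7.32 and 7.11, so that replicate 1 of the double-labelled cells lay among the green arrays (0.94, adjusted p 0.00965).

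On the lower side they were Smarca2, Grpr, Insyn2a, Tle3, Wif1, Bcl11b, Zic5, Phgdh, Nfib and Slc5a7. Insyn2a, a scaffold protein of inhibitory synapses, stood at 6.07, 6.22 and 6.05 against 6.79, 6.89 and 6.69, with no overlap (-0.66, adjusted p 0.0287). Tle3, a Groucho-family co-repressor, stood at 7.02, 7.18 and 7.19 against 7.80, 7.77 and 7.72 (-0.58, adjusted p 0.0287). Phgdh, the first enzyme of serine synthesis, stood at 6.81, 5.57 and 5.63 against 6.12, 6.45 and 6.42, and is the case where double-labelled replicate 1 was the highest of all 6 arrays (-0.73, adjusted p 0.0417). Slc5a7, the choline transporter that supplies acetylcholine synthesis, stood at 5.86, 5.40 and 5.59 against 6.24, 6.42 and 6.03 (-0.73, adjusted p 0.0417). The E18.5 arrays alone, without the narrow-range ones, gave 0 genes by limma, with 940 at an unadjusted p under 0.05, in a fit with fewer arrays and degrees of freedom.

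**Figure D4:**
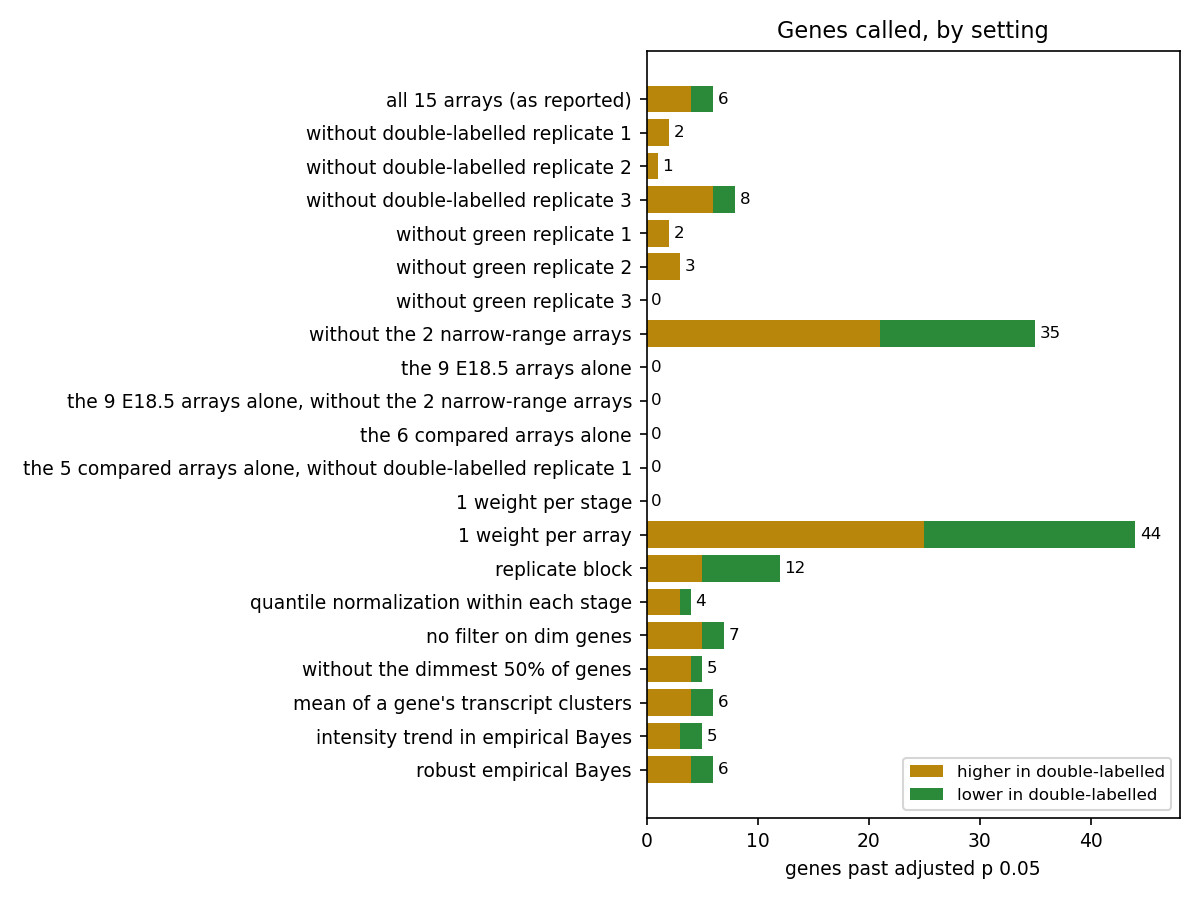
Number of genes past limma's adjusted p of 0.05 between double-labelled and green cells under each setting, divided into higher and lower in double-labelled cells. The count is 6 as reported. It is 0 in the settings that use only E18.5 arrays or weight the stages, and also without green replicate 3. It is largest at 35 and 44 where the narrow-range arrays are left out or given low weight.

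Red and green cells at E14.5 form a comparison that shares no array with the one at E18.5. It is another contrast, because no E14.5 array is named as double-labelled. Where cells with both labels went at that stage is not given in the sources used here. Both comparisons come from 1 fit with 1 variance per gene, so a gene chosen at E18.5 for its small p brings the same SE to E14.5. At E14.5 586 genes passed, 3.52% of those tested, 1.89% higher and 1.64% lower in red cells. Of the 6 genes called at E18.5, 4 had the same sign at E14.5 and 2 passed, Vgf and Ebf1. Vgf stood at 6.90 ± 0.24 in red and 5.72 ± 0.15 in green cells (SD, n = 3 each), 2.28-fold apart with an adjusted p of 3.1e-04. Ebf1 was 1.55-fold higher in red cells (log2 0.63, adjusted p 0.0449). Pou2f2 and Smarca2 had the same sign without passing (log2 0.45 and -0.39, adjusted p 0.164 and 0.337), and Igfbp4 and Grpr were near 0 (-0.11 and 0.07).

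Over all 16635 genes, 10167 had the same sign in both comparisons. At E14.5 586 of them passed, 357 on the side of their E18.5 difference. Of the 20 genes with the largest differences at E18.5, 17 had the same sign at E14.5 and 9 passed, all 9 on the same side. Besides Vgf and Ebf1, the higher ones were Slc18a2 (log2 1.92, adjusted p 0.00342) and Trhde, an enzyme that degrades thyrotropin-releasing hormone (1.73, adjusted p 0.0067). The lower ones were Clybl, a mitochondrial enzyme (-2.61), Nek7, a kinase of mitosis and inflammasome assembly (-1.95), Zic5 (-1.72) and Nfib (-1.52), with adjusted p from 3.9e-04 to 0.0133. Clybl stood at 6.49, 7.44 and 7.57 in double-labelled and at 9.01, 8.88 and 8.70 in green cells at E18.5, the widest gap of all 20 (-1.70, adjusted p 0.138). Slc6a4 and Cntnap5b had differences of -0.01 and 0.10 at E14.5, and Prox1 one of 0.86 that did not pass (adjusted p 0.0933). Whether any gene's difference changed between the stages was not tested.

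**Figure D5:**
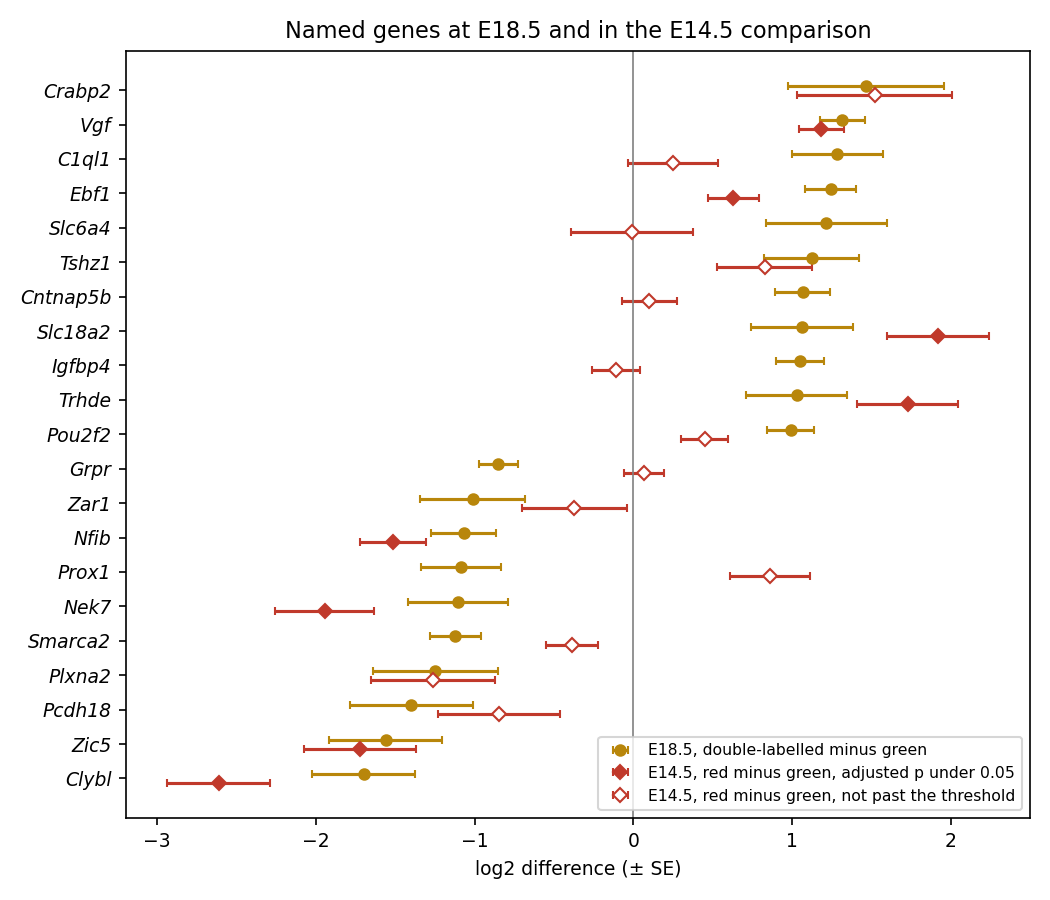
Log2 difference with its SE for the called genes and the genes with the largest differences, double-labelled minus green at E18.5 (circles) and red minus green at E14.5 (diamonds, filled where adjusted p is under 0.05). The filled diamonds of Vgf, Ebf1, Slc18a2, Trhde, Clybl, Zic5, Nek7 and Nfib lie on the same side of 0 as the circles.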

How the data were processed

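Total RNA of sorted cells was amplified from 10 ng and hybridised to Affymetrix arrays. What the authors deposited is a log2 signal for each transcript cluster (4.15 to 13.16), made with Affymetrix Expression Console per the submitters' processing notes; version and algorithm are not given in the sources used here. Levels of different genes are not comparable on this scale, and the number of arrays limits the precision.

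Of 33794 transcript clusters, the 23521 naming 1 gene were kept, and for the 1082 genes with several the brightest was used. The dimmest 25% of 22180 genes (mean log2 under 5.07) were left out. A group-means model over all 15 arrays was fitted with limma 3.58.1 in R 4.3.3 (10 residual degrees of freedom, two-sided test, Benjamini-Hochberg over 16635 genes, threshold 0.05). The script was tested on simulated data. Figures used Python 3.11.15 and matplotlib 3.10.9.

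Named were Gbx2, all called genes, the 10 per direction with the largest difference (p under 0.01, no overlap, p under 0.05 without double-labelled replicate 1), the 10 per direction with the smallest p among those passing without the narrow-range arrays, and up to 3 per list by p, out of 34 lists (694 of 740 symbols matched); predicted genes and clone names were left out. Among the genes with the largest differences, 1 that the rule names is counted but not reported here. Members and lists were chosen with earlier results of these data known. Alternatives changed the arrays, weights, replicate block, quantile normalization, filter, transcript clusters and empirical Bayes options.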

Additional observations from a re-analysis of the deposited data

How the results depend on the processing

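With limma the count of called genes was 6 as reported and ranged from 0 to 8 when 1 compared array was left out: leaving out double-labelled replicates 1, 2 and 3 in turn gave 2, 1 and 8 genes, and leaving out green replicates 1, 2 and 3 gave 2, 3 and 0 (691 at an unadjusted p under 0.05 in the last). Setting the narrow-range arrays aside gave 35, and 44 passed with 1 weight per array (25 higher and 19 lower, the 6 included), with weights estimated gene by gene because the default estimate did not converge. It was 0 with the 9 E18.5 arrays alone (485 at an unadjusted p under 0.05), with 7 of these, the narrow-range arrays left out (940), with the 6 compared arrays alone (508), with 5 of them without double-labelled replicate 1 (981) and with 1 weight per stage (519). Same-numbered double-labelled and green arrays deviated together at 0.373, 0.414 and 0.047, the last too low to treat the numbers as pairs, while 2 of 3 double-labelled and 3 of 3 green arrays correlated best with their own number, a hint from the data and not the design; with the replicate block 12 genes passed, 5 higher and 7 lower, the 6 included. The other 6 alternatives gave 4 to 7 genes. The log2 difference of Gbx2 lay between -0.197 and 0.065 when 1 compared array was left out; it turned from -0.10 to 0.065 in the 4 settings without double-labelled replicate 1, to 0.073 with 1 weight per array and to 0.021 after quantile normalization. Of 119 values for the 6 called genes 62 stayed past the threshold and 57 did not, 0 changed sign, and Grpr had no value with the dimmest 50% of genes left out. Of 559 values for 28 other named genes 34 newly passed and 6, all of Gbx2, changed sign. The causes were not tested.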

Other observations

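Some further list members are given as values. Ccnd2, a cyclin of the G1 phase, was 5.91, 5.70 and 5.63 in double-labelled and 6.23, 6.38 and 6.41 in green cells (log2 difference -0.60, limma adjusted p 0.482). It was the 1 of 21 cell cycle genes with an unadjusted p under 0.05, no more than the 5.7% of all genes with such a p. At E14.5 Ccnd2 was lower in red than in green cells (log2 -1.77, adjusted p 3.9e-05), as was Rspo3 (-2.52, adjusted p 7.7e-05). Slc1a3 was higher in red cells there (1.01, adjusted p 0.00524). Gria1, an AMPA receptor subunit, stood at 7.08, 7.58 and 7.53 in double-labelled and at 8.39, 7.90 and 7.86 in green cells at E18.5 (-0.65, adjusted p 0.549), and was higher in red than in green cells at E14.5 (0.88, adjusted p 0.0202). Cacna2d3, an auxiliary subunit of calcium channels, stood at 7.24, 7.97 and 7.59 against 6.65, 7.20 and 7.10 at E18.5 (0.62, adjusted p 0.672).

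Of 22 immature neuron and axon growth genes and 19 neural progenitor genes limma called 0, with 0 in either list at an unadjusted p under 0.05. The progenitor filament gene Nes was 6.27, 5.87 and 6.08 in double-labelled and 6.23, 6.61 and 6.23 in green cells. The 4 sex-linked genes tested all had negative differences, with a median of -0.30 and 0 past an unadjusted p of 0.05. The sex of the embryos behind each sample is not given in the sources used here.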
